A study of Rattus norvegicus with 12 samples.

Results

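The 48 rat genes described here code for proteins of the cytosolic ribosome, or carry a ribosomal protein symbol, and they were measured in developing kidney, young postnatal kidney and a cultured kidney tissue. They are all genes whose single symbol in the platform annotation is Rpl or Rps followed by a digit, or is Rplp0, Rplp1, Rplp2 or Rpsa, with Rps6k kinase genes and symbols ending in -ps left out. Each gene was read through the probe set with its highest mean signal over the 12 Affymetrix arrays, and the 48 genes stand among 14217 genes with a single symbol. The rule found 15 small-subunit and 33 large-subunit symbols and no probe set for Rplp1 or Rplp2. It left out 7 Rps6k genes (14 probe sets) and 2 genes with the suffix, Rpl37-ps2 and Rps4x-ps1.

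Rat kidneys were collected on embryonic day 13 (E13, n = 3), on embryonic day 18 (E18, n = 4) and in week 4 after birth (Wk4, n = 3), and embryonic kidneys were processed directly after dissection. The fourth group, called recombined tissue here (n = 2), joined UBs that had formed in vitro and had not branched with MM, and it was kept in culture for 6 days. The letters are the usual ones for the ureteric bud (source of the collecting duct system) and for metanephric mesenchyme (source of nephrons); the series title names the tissue a budded WD-MM recombination. The study asked whether such tissue follows the course of the normal kidney. The labels name no genotype, strain, sex, drug or pooling, and do not give the number of animals or cultures behind the replicates, so p-values measure only the spread between these arrays, which may be technical.

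The authors' deposited values are probe set intensities on a linear scale, and all arrays had been scaled to nearly the same trimmed mean (2501 on every array). Such values give the share of a message in the RNA of a sample, so a change in total RNA per cell would not appear in them. In these bulk samples fewer cells of a type and less RNA per cell cannot be told apart. Of 10 kidney markers on the platform, 8 exceeded the 40th percentile of each E18 and each Wk4 array and 6 did so on each E13 and each recombined array, while Aqp2, Nphs1, Umod and Wnt11 exceeded it on no E13 or recombined array. A probe set's signal depends on its own probes, so signals are compared between arrays and not between genes.

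A ribosome has a small subunit, which reads the messenger RNA, and a large subunit, which joins amino acids. Each subunit is built in the nucleolus from ribosomal RNA and ribosomal proteins, which are needed in matched amounts, and growing and dividing cells make more of them. Most mammalian ribosomal protein messages begin with an unbroken run of C and U, the 5′ terminal oligopyrimidine tract, through which growth signalling by the mTOR kinase controls their translation. Mammalian genomes also hold many processed copies of ribosomal protein genes, and these probe sets may not separate a gene from such copies.

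The start sites of 7 members show how runs of C and T near the annotated start vary in place and length. They are the members with the largest and the smallest differences between Wk4 and E18 among those called at an adjusted p under 0.05 and with a start in the RefSeq promoter table (assembly GRCr8), and each window runs 5′ to 3′ from 10 bases before the annotated start through 20 bases from it. Capitals mark the longest run of C and T inside the window, which can go on before its first base. The windows are chr8:73566467-73566496 (plus strand) for Rpl4, chr8:129163610-129163639 (plus) for Rpl14, chr1:104748894-104748923 (minus) for Rpl13a, chr1:163195757-163195786 (minus) for Rps3, chr4:183000903-183000932 (plus) for Rps4y2, chr10:54109682-54109711 (plus) for Rpl26 and chr3:30637126-30637155 (plus) for Rpl7a.
Rpl4: TCTTCCTTTTCCTgtgggagcagccgggta
Rpl14: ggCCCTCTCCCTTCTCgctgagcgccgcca
Rpl13a: TCCTTTCCTaggcggctgccgaagatggcg
Rps3: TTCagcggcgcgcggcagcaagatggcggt
Rps4y2: cagCTCTCCTCactcgcttgtgctctggga
Rpl26: gtcaaCTTacagaaccggaagtcgcatgta
Rpl7a: CTCCagccgagcaagatggtgagtgattat
Followed past the edge of the window, the marked run was 14 bases long in Rpl4, Rpl14, Rpl13a and Rps3. It was 24 bases long in Rpl7a, 8 in Rps4y2 and 3 in Rpl26. In Rpl4, Rpl13a, Rps3 and Rpl7a the window's first base cuts the run, so that 13, 9, 3 and 4 of its bases are shown. The marked runs of Rpl4, Rpl14 and Rps4y2 include the annotated start. Those of Rpl13a, Rps3, Rpl7a and Rpl26 end before it and so, by this annotation, are not part of the message.

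Of the 48 members, 41 had a start in the RefSeq table, and the others were Rpl7, Rpl23a, Rpl27, Rpl30, Rpl37a, Rps9 and Rps29. A run of 7 or more C or T on the coding strand of the 30-base window was present in 24 of these 41, or 58.5%, and in 16.9% of all 27457 promoters of the table. Counting also runs of that length that reach into the window from outside gave 29 of 41, or 70.7%, and 24.2% of all promoters. In the 300-base promoters, CCGGAAG on either strand was present in 24.4% of the members and 9.22% of all promoters, and AAGATGG on either strand in 19.5% and 7.3%. TATAAA on either strand was present in 14.6% of the members and 14.3% of all promoters. These matches describe the letters of the windows, and annotated starts can differ from the start used in kidney.

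The messages of most members were among the brightest signals of every array. The probe sets of 38 members had a mean signal over 50000, a limit chosen after the values were seen, and on every array each of them lay at or above percentile 98.4 of the probe sets. The lowest of these means was 65618 for Rpl21, and the highest mean below the limit was 10918 for Rpl7l1. Of the 100 probe sets with the highest means on the platform, 30 belonged to members. Two-sided tests used limma on log2(signal + 271) for all 12 arrays and all 22599 probe sets that passed a filter on dim signals, with Benjamini-Hochberg adjustment, and a call means an adjusted p under 0.05. The filter kept 46 members; Rpl3l and Rpl39l1 were too dim and were not tested.

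Members' signal was highest and about equal in the embryonic kidneys, lowest in week 4 kidney and, in the deposited scaling, in between in recombined tissue. Under quantile normalization and cyclic loess recombined tissue differed in the members' median from E18 by 0.00 and 0.04 and from E13 by 0.01 and 0.07 on the log2 scale. The summed signal of the 48 members made up 3.66%, 4.03% and 4.30% of all signal on the E13 arrays, and 4.12%, 4.31%, 3.99% and 4.12% on the E18 arrays. It made up 2.69%, 2.49% and 2.46% on the Wk4 arrays and 3.32% and 3.62% on the recombined arrays. The Wk4 arrays lay below all others, and both recombined arrays lay below all embryonic arrays. The group means were 4.00% ± 0.322 (SD, n = 3) at E13, 4.13% ± 0.133 (n = 4) at E18, 2.54% ± 0.125 (n = 3) at Wk4 and 3.47% ± 0.208 (n = 2) in recombined tissue. The group mean of 43 of the 48 members was lowest at Wk4, against 44% of all probe sets tested.

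**Figure D1:**
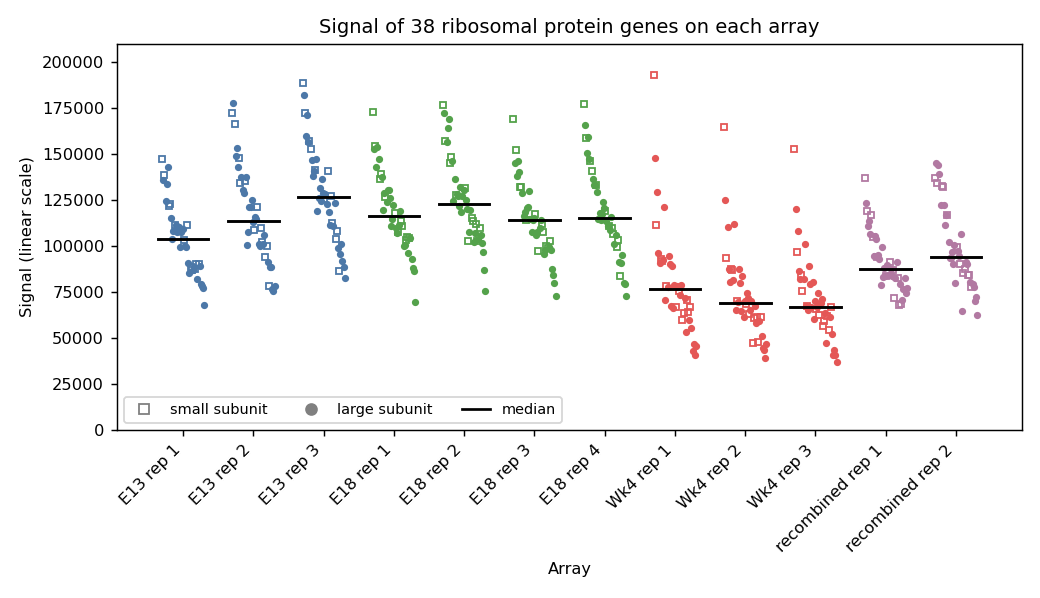
Signal (linear scale) of the 38 members with a mean signal over 50000 on each of the 12 arrays; open squares are small-subunit genes, filled circles large-subunit genes, and the black line is the median. The medians are 103718 to 126560 at E13, 114067 to 123098 at E18, 67064 to 76529 at Wk4, and 87695 and 94114 in recombined tissue; the single square far above the others at Wk4 is Rps29.

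Members varied together within a group. At E13, 31 of the 38 bright members were lowest on replicate 1 and 37 were highest on replicate 3, and the median coefficient of variation was 11.95%. It was 5.28% at E18, 6.67% at Wk4 and 8.36% over the pair of recombined arrays. In the Wk4 group 33 of the 38 were highest on replicate 1. Members of a group are therefore not independent measurements of it.

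Between E13 and E18 no member was called by limma. Of the 46 tested members 0 were higher and 0 lower, against 12.7% and 7.03% of all probe sets tested, and 5 had an unadjusted p under 0.05. The median difference, E18 minus E13, was 0.03 on the log2 scale, against -0.02 over all probe sets. Rpl18, a large-subunit protein, had signals of 85395, 99872 and 111233 at E13 and of 119119, 119531, 114455 and 115615 at E18. The groups did not overlap, and the difference of 0.25 ± 0.10 (SE) was not called (adjusted p = 0.103). Rps15a, a small-subunit protein, had signals of 111687, 121214 and 141039 at E13 and 107575, 102786, 97308 and 111137 at E18. All E18 arrays were lower, and the difference of -0.25 ± 0.09 was not called (adjusted p = 0.0837).

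From E18 to Wk4 most members fell. Of the 46 tested, 40 were lower and 0 higher, against 32.6% and 22.2% of all probe sets tested. The median difference was -0.72, against -0.12 over all probe sets, and the 38 bright members kept a median of 61.0% of their E18 signal. Of these 38, 35 had all Wk4 arrays below all E18 arrays, against 34.4% of all probe sets. Against E13, 41 members were lower and 0 higher at Wk4, against 34.4% and 26.2% of probe sets, with a median difference of -0.69 against -0.11; this comparison shares the Wk4 arrays. Under cyclic loess, a scaling that evens out intensity-dependent differences between arrays, 32 members were called lower than at E18 and 27 lower than at E13, 3 became higher in each, and the median differences were -0.31 and -0.24.

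**Figure D2:**
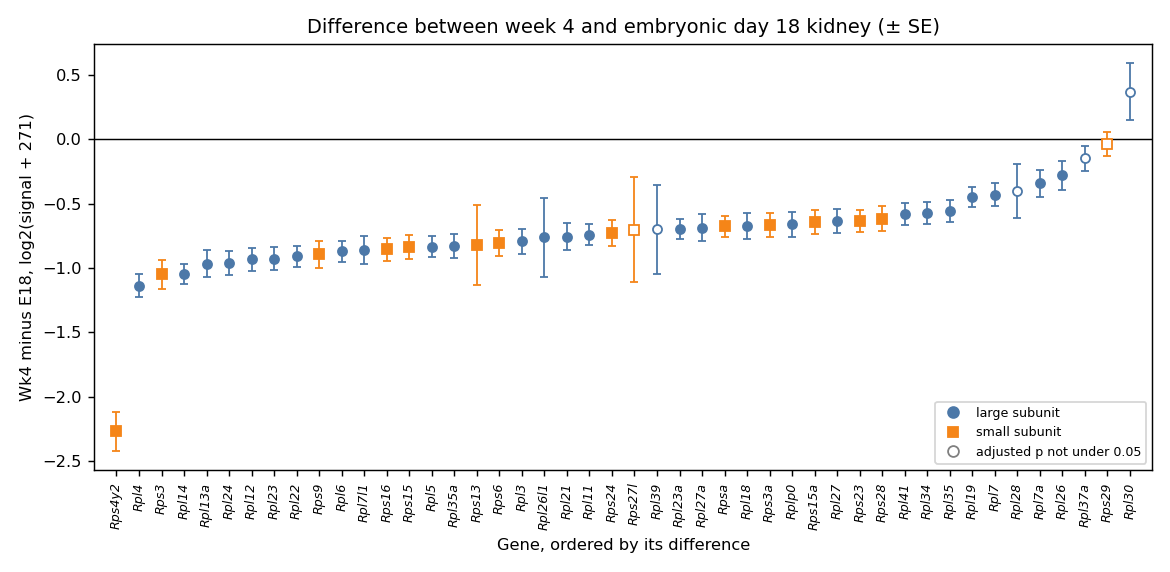
Difference between Wk4 (n = 3) and E18 (n = 4) in log2(signal + 271) for the 46 tested members, ordered by size; points are limma estimates, bars are SE, squares are small-subunit and circles large-subunit genes, and open symbols have an adjusted p not under 0.05. Rps4y2 lies at -2.27, most members between -1.14 and -0.43, and Rps29, Rpl37a and Rpl30 nearest to or above 0.

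Proliferation markers were also lower at Wk4: all 13 were called lower than at E18, against 32.6% of all probe sets tested. The summed signal of 13 of 13 markers (such as Mki67 and Top2a) was 250517 to 288345 at E13, 199434 to 237521 at E18, 27176 to 37127 at Wk4 and 141794 to 178180 in recombined tissue. Their sum was lower at E18 than at E13 without overlap, but sums follow the brightest markers. By calls, 2 of the 13 markers were lower at E18 than at E13 and 0 higher, against 7.03% and 12.7% of all probe sets. At Wk4, Bub1b and Ttk, both needed for mitosis, did not exceed the 40th percentile of any array. Erythroid markers, of which 10 of 13 were on the array, summed to 203289 to 234675 at E18 and 92447 to 124117 at Wk4. At Wk4 7 of the 10, Hbz, Ahsp and Klf1 among them, did not exceed that percentile, whereas Hbb still read 94567 on average and Slc4a1 rose from 3011 to 7585. Their part in the result was not tested.

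The bright members with the largest falls lost about as much as they kept. Rpl4, a large-subunit protein that lines the exit tunnel of the new chain, had signals of 92977, 101800, 87570 and 94990 at E18 and 43165, 44456 and 40487 at Wk4. Its E13 signals were 79482, 88658 and 100889, and its recombined signals were 76784 and 77885. All Wk4 arrays were far below every other array, and the difference from E18 was -1.14 ± 0.09 (limma, adjusted p = 5.65e-08), which left 45.3% of the E18 signal.

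Rpl14, also of the large subunit, had signals of 86267, 86984, 79784 and 79206 at E18 and 40606, 38911 and 40577 at Wk4. On the E13 arrays it read 77243, 75578 and 88669, and on the recombined arrays 74385 and 72300. The Wk4 arrays were again separate from all others, with a difference from E18 of -1.05 ± 0.08 (limma, adjusted p = 3.75e-08). A second, far dimmer probe set of Rpl14 (mean signal 444) gave -0.01 and was not called (limma, adjusted p = 0.985).

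Rps3, a small-subunit protein at the entry of the messenger RNA channel that is also known in DNA repair, had signals of 113623, 115149, 112145 and 109670 at E18 and 59705, 47200 and 56714 at Wk4. On the E13 arrays the signals were 88435, 109952 and 127191, and on the recombined arrays 86795 and 85148. The difference between Wk4 and E18 was -1.05 ± 0.11 (limma, adjusted p = 1.44e-06), and Wk4 lay below every other array. Rpl13a, which in human cells also leaves the ribosome to silence inflammatory messages, read 100801, 107088, 97980 and 105800 at E18 and 53010, 58051 and 47108 at Wk4. The groups did not overlap, and the difference was -0.97 ± 0.10 (limma, adjusted p = 1.81e-06).

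Rps29 stood at the other end. This small zinc-binding protein of the small subunit had signals of 173088, 176689, 169031 and 177302 at E18 and 192917, 164683 and 153040 at Wk4. At E13 the signals were 147407, 172248 and 188932. The Wk4 arrays lay both above and below the E18 arrays, and the difference of -0.04 ± 0.09 was not called (adjusted p = 0.748). It was -0.29 under quantile normalization (limma, adjusted p = 0.00623) and 0.45 under cyclic loess (limma, adjusted p = 4.9e-06), so both its direction and its call depend on the scaling.

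Rpl37a, a zinc-binding protein of the large subunit, had signals of 119711, 124640, 116413 and 133207 at E18 and 121247, 112078 and 101071 at Wk4. The groups overlapped, and the difference of -0.15 ± 0.10 was not called (adjusted p = 0.219; 0.32 under cyclic loess). Rpl26, which in human cells also binds the p53 message, read 152731, 172247, 144983 and 165744 at E18 and 148008, 124862 and 120352 at Wk4. It was called lower at -0.28 ± 0.11 (limma, adjusted p = 0.0472) although replicate 1 of Wk4 lay within the E18 range, and it turned to 0.20 under cyclic loess. The call was lost under median centring (adjusted p = 0.083) and without E13 replicate 2, E18 replicate 1, 2 or 4, or Wk4 replicate 2 or 3 (adjusted p from 0.0516 to 0.174). Rpl7a, of the large subunit, read 143021, 156487, 138270 and 150595 at E18 and 129523, 110390 and 108348 at Wk4, with no overlap. Its difference was -0.34 ± 0.11 (limma, adjusted p = 0.0139), and 0.14 under cyclic loess.

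Rps4y2 was the only member called at 3-fold or more, the fold that the study set, which 5.43% of all probe sets reached downward from E18 to Wk4 and 8.46% from E13 to Wk4. Its symbol is that of a copy of the small-subunit protein Rps4, and the RefSeq table places it on chromosome 4. The signals were 6497, 8940 and 9705 at E13 and 6891, 6515, 7697 and 8696 at E18. They were 1323, 1480 and 1176 at Wk4 and 3011 and 2942 in recombined tissue. The 3 levels did not overlap, with embryonic kidney highest and Wk4 lowest.

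The fall of Rps4y2 from E18 to Wk4 was -2.27 ± 0.15 (limma, adjusted p = 1.03e-08), which left 17.8% of the signal. From E13 it was -2.42 ± 0.16 (limma, adjusted p = 6.9e-09). Recombined tissue lay below E18 by -1.24 ± 0.17 (limma, adjusted p = 8.28e-05) and above Wk4 by 1.03 ± 0.18 (limma, adjusted p = 2.06e-04). These directions and calls were the same under quantile normalization, median centring and cyclic loess.

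The acidic stalk of the large subunit recruits elongation factors, and Rplp0 is its base. It had signals of 90875, 101191 and 118579 at E13 and of 111531, 107559, 109625 and 108563 at E18. At Wk4 the signals were 73373, 65124 and 68864, and in recombined tissue 87588 and 106574. The Wk4 arrays lay below all others, and the fall from E18 was -0.66 ± 0.10 (limma, adjusted p = 3.44e-05).

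Rpsa, a small-subunit protein also described as a laminin receptor, read 87423, 94140 and 103895 at E13 and 103274, 111937, 100026 and 99532 at E18. At Wk4 it read 70796, 61663 and 62090, and in recombined tissue 82605 and 84120. The Wk4 arrays were again lowest, with a fall from E18 of -0.68 ± 0.08 (limma, adjusted p = 6.77e-06). Its other probe sets gave differences of -1.12 and -0.84, which were also called, so the size of the fall depended on the probes. For Rpl7, in contrast, the chosen probe set gave -0.43 and was called, and a far dimmer one gave -1.01 and was not (adjusted p = 0.242).

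Rpl5 and Rpl11 join the 5S ribosomal RNA and, when free, inhibit Mdm2. Rpl11 read 122241, 130371, 115375 and 120708 at E18, 78651, 70226 and 70034 at Wk4, and 83712 and 79871 in recombined tissue. Rpl5 read 147537, 169302, 140424 and 147568 at E18, 91012, 80569 and 82196 at Wk4, and 106398 and 122176 in recombined tissue. In both, Wk4 and recombined arrays lay below all E18 arrays in the deposited scaling. The lower median of all members in recombined tissue than at E18 was absent under quantile normalization and cyclic loess. Rps6, which the S6 kinases phosphorylate, read 126974, 127699, 114145 and 133208 at E18 and 78059, 70159 and 67160 at Wk4, without overlap.

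Most members of both subunits fell. From E18 to Wk4, 13 of 15 small-subunit members and 27 of 31 tested large-subunit members were called lower, against 32.6% of all probe sets tested. The median folds were 0.604 and 0.616, against 0.921 over all probe sets. The median of the small-subunit members minus that of the large-subunit members was 0.06 ± 0.06 (SD, n = 3) on the log2 scale at E13 and -0.01 ± 0.03 (n = 4) at E18. It was -0.07 ± 0.01 (n = 3) at Wk4 and -0.02 ± 0.03 (n = 2) in recombined tissue. These shifts were small beside the fall of the members as a whole.

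Recombined tissue had higher signals than week 4 kidney for most members. Of 46 tested, 30 were higher and 1 lower, against 32.0% and 20.9% of all probe sets, with a median difference of 0.47 against 0.19. Among the 38 bright members, 30 had both recombined arrays above all Wk4 arrays, which 40.6% of all probe sets showed. Rpl14 was higher by 0.87 ± 0.09 (limma, adjusted p = 2.02e-06), or 183% of its Wk4 signal, and Rpl4 by 0.85 ± 0.11 (limma, adjusted p = 8.33e-06). Rplp0 was higher by 0.48 (limma, adjusted p = 0.00239) and Rpsa by 0.36 (limma, adjusted p = 0.00629). Median centring of the arrays lowered the count to 19 members. Without recombined replicate 2, 22 were higher.

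The member that went the other way was Rps29, with 136930 and 136795 in recombined tissue against 192917, 164683 and 153040 at Wk4. Its recombined arrays lay below all others, and it was lower than at Wk4 by -0.31 ± 0.11 (limma, adjusted p = 0.0291). That call was lost without Wk4 replicate 1 or either recombined array, and the difference became 0.22 under quantile normalization. On recombined replicate 1 the signal of Rps29 was the highest of the whole array, whereas array maxima reached 318614 at Wk4. Rpl18, at 83947 and 64762 in recombined tissue and 79048, 69844 and 71444 at Wk4, overlapped between the groups and gave a difference of 0.01.

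Against the embryonic kidneys, recombined tissue had lower member signals with the deposited scaling, but this direction was absent under quantile normalization and cyclic loess. With the deposited scaling 25 members were lower and 1 higher than at E18, against 15.5% and 12.7% of all probe sets, and the median difference was -0.29 against 0.00. Under quantile normalization 5 were lower with a median of 0.00, and under cyclic loess 4 were lower with a median of 0.04. Without recombined replicate 1 the count was 7, and without E18 replicate 2 it was 16. Against E13 17 members were lower and 0 higher, against 15.2% and 15.9% of probe sets, with a median of -0.28 against 0.00. Quantile normalization and cyclic loess each gave 2 lower, with medians of 0.01 and 0.07; median centring gave 37. Without recombined replicate 1 the count was 5, without E13 replicate 1 it was 30, and without E13 replicate 2 or 3 it was 10 or 9.

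**Figure D3:**
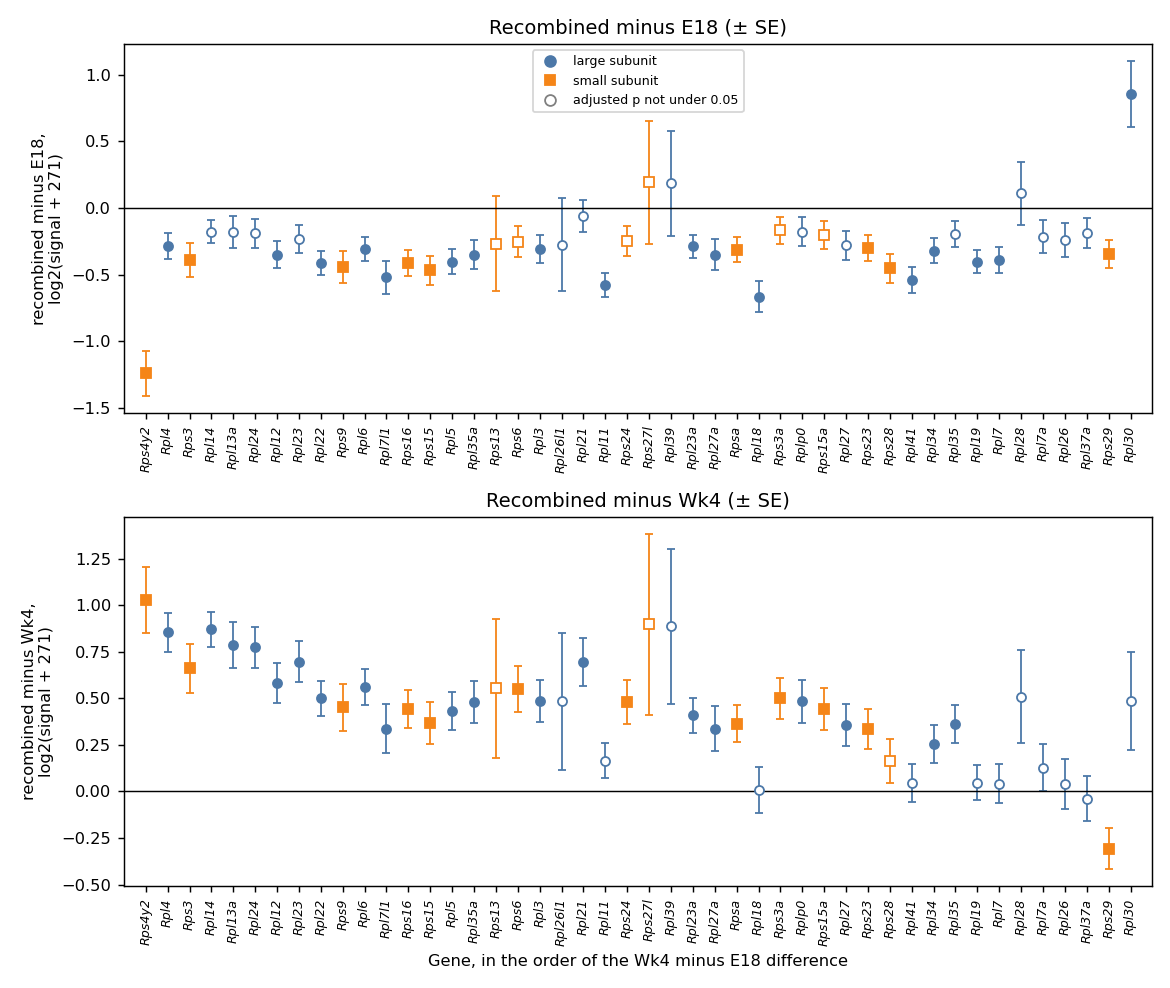
Recombined tissue (n = 2) minus E18 (n = 4, top) and minus Wk4 (n = 3, bottom) in log2(signal + 271) for the 46 tested members, in the order of their Wk4 minus E18 difference; points are limma estimates, bars are SE, and open symbols have an adjusted p not under 0.05. With the deposited scaling 25 members lie significantly below 0 in the top panel (5 under quantile normalization, 4 under cyclic loess), and 30 lie above 0 in the bottom panel; the panels share the recombined arrays, and their order shares the E18 and Wk4 arrays.

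The members named next had the largest or the smallest differences between recombined tissue and E18 among the bright members, in the deposited scaling. The members' lower median there was absent under quantile normalization and cyclic loess, and the single differences are not given under those scalings. Rpl18 read 119119, 119531, 114455 and 115615 at E18 and 83947 and 64762 in recombined tissue, a difference of -0.67 ± 0.12 (limma, adjusted p = 6.18e-04) without overlap. Rpl11 differed by -0.58 ± 0.09 (limma, adjusted p = 2.83e-04). Rpl41, a very short protein of the large subunit, differed by -0.54 ± 0.10 (limma, adjusted p = 9.01e-04), with 130377, 121555, 129713 and 117943 at E18 against 78841 and 93396. At the other end Rpl21 read 69358, 75421, 72838 and 72588 at E18 and 77269 and 62288 in recombined tissue. Its recombined arrays lay on either side of the E18 range, and the difference of -0.06 ± 0.12 was not called (adjusted p = 0.743).

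Over all 3 in vivo groups, 20 members had both recombined arrays above every Wk4 array and below every embryonic array, which 5.52% of all probe sets showed in the deposited scaling. Macrophage and leukocyte markers (13 of 13) summed to 136940 and 243275 in recombined tissue, 93698 to 104878 at Wk4, 20190 to 27214 at E18 and 6798 to 10675 at E13. Of 12 tested, 11 were higher and 1 lower in recombined tissue than at Wk4, against 32.0% and 20.9% of all probe sets. Cd74 exceeded the 40th percentile on no recombined array. Erythroid markers summed to 2055 and 3965 in recombined tissue, where 9 of 10, Hbb, Hbz and Alas2 among them, did not exceed the 40th percentile. Kidney markers (10 of 13 on the array) summed to 18372 and 29290 there, 29664 to 41687 at E13, 67144 to 82666 at E18 and 286540 to 298144 at Wk4. These sums follow the brightest markers. By calls recombined tissue had 0 of 10 higher and 2 lower than E13, against 15.9% and 15.2% of all probe sets. Their median difference from E13 was 0.12. From E18 to Wk4, 4 kidney markers were higher and 4 lower, against 22.2% and 32.6%. The part of these markers in the result was not tested.

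The members with paralogue names and the other dim probe sets did not move as a block. Rpl7l1, a paralogue of Rpl7 known from ribosome assembly, read 14003, 12966 and 13798 at E13 and 12371, 13226, 13631 and 12187 at E18. It read 7571, 7013 and 6364 at Wk4 and 10109 and 7781 in recombined tissue. The levels were ordered embryonic, recombined and Wk4 without overlap, with a fall from E18 to Wk4 of -0.86 ± 0.11 (limma, adjusted p = 9.72e-06). Its partner Rpl7 fell by -0.43 ± 0.09 (limma, adjusted p = 6.83e-04); the difference between the partners was not tested.

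**Figure D4:**
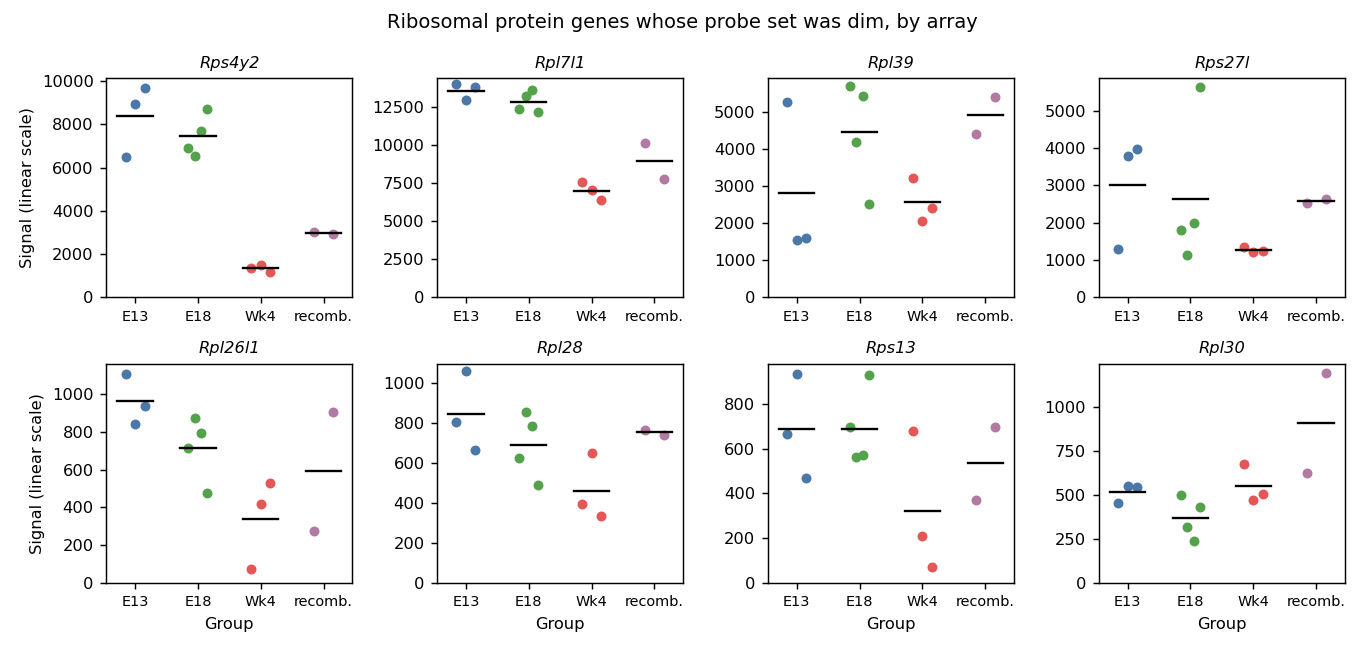
Signal (linear scale, a separate axis for each gene) of the 8 tested members whose mean signal was under 50000, by group; points are arrays and the black line is the group mean. For Rps4y2 and Rpl7l1 the E13 and E18 arrays overlap and lie above the recombined arrays, which lie above the Wk4 arrays, whereas the embryonic arrays of Rpl39 and Rps27l split within each group.

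Rpl39, a short protein in the exit tunnel, read 5274, 1548 and 1610 at E13 and 5707, 4188, 5438 and 2516 at E18. At Wk4 it read 3232, 2056 and 2406, and in recombined tissue 4418 and 5421. Rps27l, a paralogue of Rps27 that is a p53 target in human cells, read 1281, 3788 and 3988 at E13 and 1796, 1140, 1986 and 5645 at E18, then 1352, 1196 and 1245 at Wk4 and 2536 and 2632 in recombined tissue. In both genes E13 replicate 1 resembled E18 replicates 1 to 3, and E13 replicates 2 and 3 resembled E18 replicate 4, with Rpl39 high and Rps27l low in the first set. That split of the embryonic arrays was found from the data over all probe sets and is given by no label.

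Neither gene was called in any comparison with all arrays and no covariate. The difference of Rpl39 between E18 and E13 was 0.77 ± 0.35 (adjusted p = 0.145), and 0.25 (adjusted p = 0.419) with the array set as a covariate. Without E13 replicate 1 it was 1.29 (limma, adjusted p = 0.00287), and without E18 replicate 4 it was 1.001 (limma, adjusted p = 0.0447). With the covariate Rpl39 was called higher in recombined tissue than at E13 (limma, adjusted p = 0.0104) and at Wk4 (limma, adjusted p = 0.00165). Leaving out E13 replicate 1 or E18 replicate 4 also brought calls in other comparisons of these genes, among them Rpl39 at Wk4 against E18 (adjusted p = 0.0184 and 0.0282) and Rps27l at Wk4 against E13 (adjusted p = 0.00652 and 0.0143). Within the first set the E13 signal of 5274 lay inside the E18 range, and within the second E18 at 2516 lay above both E13 arrays. With the same covariate the difference of Rps27l between Wk4 and E18 became -1.09 (limma, adjusted p = 3.61e-05). The p-values with the covariate are too small to the extent that the sets were found in these data.

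Rpl26l1, a paralogue of Rpl26, read 1108, 841 and 936 at E13, 717, 872, 792 and 476 at E18, 72.6, 417 and 530 at Wk4, and 277 and 908 in recombined tissue. It was lower at Wk4 than at E13 by -1.10 (limma, adjusted p = 0.00977). The probe sets of Rpl26l1, Rpl30, Rps13 and Rpl28 were dim. Their mean percentiles over the 12 arrays were 41.1, 38.2, 38.3 and 43.3, near the percentile used by the filter on dim signals. Calls for these genes, higher or lower, are therefore weak evidence of a change in their messages. Rpl30, which can also bind its own message in yeast, read 498, 319, 237 and 431 at E18 and 623 and 1199 in recombined tissue. It was the only member called higher there, by 0.85 ± 0.25 (limma, adjusted p = 0.0196), and not without recombined replicate 2 (0.50, adjusted p = 0.252). Rps13, of the small subunit, was called lower at Wk4 than at E18 by -0.82 ± 0.31 (limma, adjusted p = 0.0371), with Wk4 signals of 679, 210 and 70.3 that partly overlapped the 698, 562, 571 and 930 at E18. Rpl28, of the large subunit, was called lower at Wk4 than at E13 by -0.62 ± 0.22 (limma, adjusted p = 0.0275), and its difference from E18 of -0.40 ± 0.21 was not called (adjusted p = 0.122). Rpl39l1, a paralogue of Rpl39, read 19.6 to 332 over the 12 arrays, and Rpl3l, the striated-muscle paralogue of Rpl3, read 50.8 to 385. Its partner Rpl3 fell from E18 to Wk4 by -0.79 ± 0.09 (limma, adjusted p = 5.38e-06). A dimmer probe set of Rpl3 (mean signal 3922) gave -0.67 and was not called (limma, adjusted p = 0.302).

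Other parts of the translation machinery fell from E18 to Wk4 too. Of 32 tested initiation and elongation factors 28 were lower and 2 higher, against 32.6% and 22.2% of all probe sets tested. Their median fold was 0.632, against 0.609 for the members and 0.921 over all probe sets. Eef1g, a subunit of the factor that recharges eEF1A, fell by -1.55 ± 0.11 (limma, adjusted p = 2.21e-08), and the helicase Eif4a1 by -1.48 ± 0.12 (limma, adjusted p = 9.12e-08). Of 44 ribosome biogenesis genes 36 were lower and 2 higher, against the same 32.6% and 22.2%, with a median fold of 0.530. Nop58, a core protein of the particles that methylate ribosomal RNA, fell by -2.21 ± 0.12 (limma, adjusted p = 2e-09).

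Of 15 other genes known for 5′ oligopyrimidine messages 14 were lower and 0 higher, against 32.6% and 22.2% of all probe sets, with a median fold of 0.463. Hnrnpa1, an RNA-binding protein, fell by -3.40 ± 0.13 (limma, adjusted p = 7.8e-11). Of 23 genes of growth signalling to the ribosome 10 were lower (43.5%) and 5 higher (21.7%), against 32.6% and 22.2% of all probe sets, and Mycn, a transcription factor that drives ribosome production, fell by -3.40 ± 0.19 (limma, adjusted p = 2.53e-09). Some genes are in more than 1 of these lists.

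Mitochondrial ribosomal proteins, which serve the separate ribosome of that organelle, gave other counts. From E18 to Wk4, 14 of 73 were lower and 13 higher, against 32.6% and 22.2% of all probe sets, with a median fold of 0.948. In recombined tissue 50 of 73 were lower and 0 higher than at E18, against 15.5% and 12.7% of all probe sets. Under cyclic loess 27 were lower and 1 higher, with no share of all probe sets at that scaling to set beside them. With the deposited scaling Mrpl12, which also binds the mitochondrial RNA polymerase, was lower than at E18 by -1.13 ± 0.12 (limma, adjusted p = 1.09e-05). Against Wk4, 40 were lower and 1 higher in recombined tissue, against 20.9% and 32.0% of all probe sets, whereas 30 of 46 cytosolic members were higher. Mrpl15 was lower than at Wk4 by -1.57 ± 0.10 (limma, adjusted p = 1.34e-08). The difference between the lists was not tested.

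Against Wk4, recombined tissue was higher for 18 of 32 translation factors, 23 of 44 biogenesis genes and 14 of 15 other oligopyrimidine messages, and lower for 2, 5 and 0, against 32.0% and 20.9% of all probe sets. Gas5, a noncoding host of small nucleolar RNAs with an oligopyrimidine start, was higher by 2.83 ± 0.15 and also exceeded E18, by 0.76 ± 0.14 (limma, adjusted p = 0.00105). Against E18, in the deposited scaling, 15 translation factors, 21 biogenesis genes and 8 oligopyrimidine messages were lower, and 0, 0 and 1 were higher, against 15.5% and 12.7% of all probe sets. The counts of these lists under other scalings are not given here. Lower calls of the cytosolic members against E18 dropped from 25 to 5 under quantile normalization and 4 under cyclic loess. From E13 to E18, 1 translation factor was higher and 2 lower, and 0 biogenesis genes were higher and 6 lower, against 12.7% and 7.03% of all probe sets. Of the 15 other oligopyrimidine messages 1 was higher and 1 lower (6.67% each), with a median difference of -0.02. Nap1l1, a histone chaperone with an oligopyrimidine message, fell over that interval by -0.70 ± 0.10 (limma, adjusted p = 2.35e-04), and the elongation factor Eef2 rose by 0.39 ± 0.09 (limma, adjusted p = 0.00716).

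**Figure D5:**
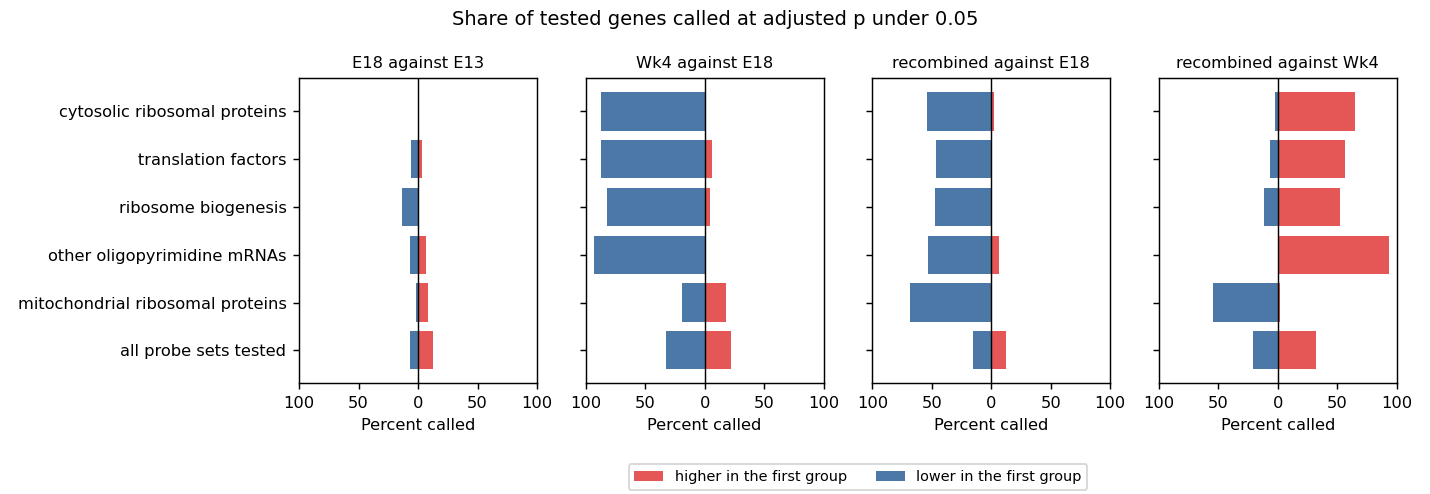
Percent of the tested genes of each list that limma called higher (red, to the right of 0) or lower (blue, to the left) at an adjusted p under 0.05 in 4 comparisons, with all probe sets tested as the bottom bar. Cytosolic ribosomal proteins are called lower in 40 of 46 cases for Wk4 against E18 and higher in 30 of 46 for recombined tissue against Wk4, where 40 of 73 mitochondrial ribosomal proteins are lower; the lower calls against E18 drop to 5 and 4 cytosolic members under quantile normalization and cyclic loess.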

How the data were processed

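Biotinylated cRNA from total RNA was read on Affymetrix arrays, per the labels' protocols. Each deposited value is a probe set intensity, linear, from GCOS (named in the submitters' processing notes), and the version and settings used by the authors are not stated there. Trimmed means (2% off each end) show that each array was scaled globally, which hides changes of total RNA. Columns were matched to the 12 samples by title, 0 pairs of arrays were identical, and 57 control probe sets were left out.

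A pseudocount of 271, the 25th percentile of all values, was added before taking log2, which understates differences of dim genes. Array medians then spanned 0.27, and no further normalization was applied. A probe set was tested (22599 of 31042) if at least 2 arrays had it over the 40th percentile. The 4 groups and 12 arrays formed 1 model in limma 3.58.1 (R 4.3.3; lmFit, eBayes with an intensity trend, 8 residual degrees of freedom), adjusted by Benjamini-Hochberg over all tested probe sets within each of 6 comparisons. The steps were tested on simulated data. The number of arrays limits the precision.

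The platform annotation, which can be old, gave 1 symbol to 20826 probe sets, several to 436 and none to 9780; 46 of the 48 members matched the current RefSeq by gene ID. Named members were taken, per comparison, from those with the 5 highest and 5 lowest differences, those at 3-fold, paralogues with their partners, stalk proteins and Rpsa, and named genes of other lists from the 2 with the largest differences per comparison. Outside this rule, Rpl5 and Rps6 were added as examples after their values were seen, and Rps13 as 1 of the 8 tested members under 50000. Members and lists were chosen with earlier results of these data known, and no list was given a p. Alternatives covered the pseudocount, scaling, filter, variance model, arrays compared, replicate block, embryonic array set, mean of a gene's probe sets, a 2-fold limit and each array left out.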

Additional observations from a re-analysis of the deposited data

Results flagged for a closer look

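Within groups of 4 arrays, which here means E18, each member was searched for an array far from the others. Of the 48 members 1 met the limit. Rps16, a small-subunit protein, read 131805 on E18 replicate 2, where the nearest other E18 array read 118883 and the lowest 117721. The gap made up 0.917 of the group's range, above Dixon's critical value, which chance alone passes in about 1 of 20 groups. That array was also the highest E18 array for 27 of the 38 bright members.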

How the results depend on the processing

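The 40 lower calls at Wk4 against E18 became 32 under cyclic loess, and 37 to 40 with an array left out; the 41 against E13 became 27 and 37 to 42; a 2-fold limit gave 4 against E18 and 3 against E13, and cyclic loess added 3 higher calls in each. For recombined tissue against E13 the 17 lower calls became 2 under quantile normalization and cyclic loess, 37 under median centring, 10 with no filter, 5 without the variance trend, 3 with only the arrays compared, 9 with the replicate number as a block, 1 at 2-fold, and 5 to 30 with an array left out; the 0 higher calls became 1 under quantile normalization or the array set covariate, 2 under cyclic loess, and 0 to 1 with an array left out. Against E18 the 25 lower calls became 5, 4 (quantile, cyclic loess), 15 with no filter, 11 without the trend, 13 with the block, 1 at 2-fold, and 7 to 26 with an array left out; the 1 higher call became 2 under quantile normalization and cyclic loess, 0 under the 60th percentile filter, only the arrays compared, the block or 2-fold, and 0 to 1 with an array left out. Against Wk4 the 30 higher calls became 19 under median centring and 1 at 2-fold, and ranged from 22 to 31 with an array left out; the 1 lower call became 0 under quantile normalization, no filter, no trend, only the arrays compared, the block or 2-fold, and 0 to 1 with an array left out. For E18 against E13 the 0 higher calls became 1 under cyclic loess, 2 with the block and 0 to 2 with an array left out, and the 0 lower calls 1 under quantile normalization, median centring or cyclic loess and 0 to 1 with an array left out. The cause was not tested.

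Among named members, some differences changed sign and were called in the main or the alternative processing. Under cyclic loess these were, for Wk4 against E18, Rps29 (0.45), Rpl37a (0.32), Rpl26 (0.20), Rpl7a (0.14) and Rpl7 (0.0385). For Wk4 against E13 they were Rpl37a (0.34), Rpl19 (0.22), Rpl26 (0.17) and Rpl7 (0.0408). For recombined tissue Rplp0 turned against E13 (0.26, and 0.22 under quantile normalization). Rpl3 (0.0619, and 0.17 as a mean of probe sets) and Rpsa (0.0206) turned against E18. Rps29 in recombined tissue against Wk4 turned to 0.22 under quantile normalization. A further 12 differences of named members under cyclic loess and 11 under quantile normalization changed sign without a call in either processing. The small minus large subunit value moved to 0.0350 at E18, -0.0329 at Wk4 and -0.0646 in recombined tissue with the mean of probe sets, and to -0.0850 at Wk4 under quantile normalization. Replicate numbers do not pair the arrays: deviations of same-numbered arrays correlated from -0.17 to 0.31 over 15 pairs, and 3 of 12 arrays correlated best with their own number. With 2 recombined arrays, leaving out 1 assumes that the other varies like the remaining groups.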

Other observations

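Across the 38 bright members, the difference between Wk4 and E18 was smaller for members with a higher mean signal (Pearson 0.59, Spearman 0.47, across genes that share arrays and scaling, and whose mean includes the arrays compared). The same description for recombined tissue against Wk4 gave -0.56 and -0.43.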
